A study of Mus musculus with 7 samples.

Results

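The collagen genes of the dental epithelium libraries were described class by class in K14;Nogo-A and wild-type pups. Members were all genes named Col, a number, a and a number in GRCm38, except Col17a1, for which 2 or more of the 7 libraries held 10 or more counts. Of 43 such genes in the files, 40 met this rule and all 40 passed the filter on low counts, out of 14791 genes tested and 25700 listed. Col6a5 lay just inside the rule, with 6, 4, 20 and 5 counts in K14;Nogo-A (replicates 1, 2, 7 and 10), while wild-type replicates 3, 8 and 9 had 43, 22 and 3 counts. Col6a6, Col10a1 and Col19a1 lay outside it, with at most 9, 12 and 2 counts in a library.

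The study asked what the loss of Nogo-A, a membrane protein best known for limiting nerve fibre growth, does to tooth epithelium. Each library held the RNA of 1 pup at birth (PN0), from the epithelium of its lower incisors, taken from the posterior part with the left and right incisor pooled, after the epithelium had been loosened from the mesenchyme with the enzyme Dispase. The 4 K14;Nogo-A pups were labelled K14cre cre/+; Nogo-A fl/fl, so that Cre recombinase driven by the keratin 14 promoter deletes the floxed Nogo-A exon in epithelial cells while mesenchymal cells keep it. The 3 wild-type pups were labelled wt, a label that names neither Cre nor floxed alleles, and 1 further pup of this genotype, part of the study, was not analysed here.

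Collagens are proteins of 3 chains wound into a triple helix, and their genes fall into classes by the structure the protein builds. Fibrillar collagens form the banded fibrils of dentin, bone and connective tissue, FACIT collagens sit on the surface of such fibrils, type IV collagens form the sheet of the basement membrane, and type VI collagen forms beaded filaments in the matrix around cells. In the tooth, odontoblasts and the dental mesenchyme make most fibrillar collagen, while the epithelium rests on the basement membrane and its ameloblasts secrete an enamel matrix that is built without collagen. Because the libraries are bulk RNA, fewer cells of a type and less RNA per cell cannot be told apart.

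The libraries held 20929207 to 41219439 counts on genes, which were scaled to CPM (counts relative to library size) with TMM library sizes. No pair of the 7 libraries was as close as repeated counts of 1 library (chi-square per degree of freedom at least 16.1 over 21 pairs). Rtn4, the gene of Nogo-A, lay between 297 and 344 CPM in K14;Nogo-A and between 277 and 346 CPM in wild-type, and since a count over the whole gene also holds its other isoforms it does not check the deletion. The 10 epithelium markers, 1 of them past the study's thresholds in the higher direction, were all above 1 CPM in some library and summed to 8763 to 10434 CPM in K14;Nogo-A and 6503 to 10349.6 CPM in wild-type. All 18 mesenchyme markers other than collagens were detected too, and their mean log2 CPM was 5.31 to 5.35 in the 4 K14;Nogo-A libraries and 5.56 to 5.86 in the 3 wild-type libraries. Counts of Y-linked genes were present in K14;Nogo-A replicate 1 and wild-type replicates 3 and 8 and near 0 in the other 4 libraries.

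The words rose and fell are kept for genes with an adjusted p under 0.05 in edgeR's quasi-likelihood test with Benjamini-Hochberg adjustment over all 14791 genes. The study's thresholds are looser, asking for an unadjusted p no higher than 0.05 and a log2 fold change (K14;Nogo-A against wild-type) of 0.5 or more in size. SE is a standard error of that fold change, taken as its size divided by the square root of the F statistic of edgeR's test. Where no other replicates are named, values in K14;Nogo-A are given for replicates 1, 2, 7 and 10 in that order and values in wild-type for replicates 3, 8 and 9, and errors are SD over 4 and 3 pups.

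Most collagen genes were lower in K14;Nogo-A. Of the 40 members, 8 were past the study's thresholds in the lower direction and 0 in the higher, against 2.74% and 2.02% of all genes tested. Those 8 were the fibrillar Col5a1, Col5a2, Col11a1 and Col24a1, the FACIT Col12a1, the type VI genes Col6a2 and Col6a3, and the transmembrane Col25a1. Only Col12a1 fell at an adjusted p under 0.05 and 0 members rose, where 0.0338% of all genes fell and 0% rose. At an unadjusted p under 0.05 there were 12 members lower and 1 higher (Col9a3), beside 6.66% and 6.25% of all genes. The values of the genotypes did not overlap for 7 members, all lower in K14;Nogo-A, beside 6.09% of all genes lower and 5.43% higher. The log2 fold change was negative for 33 of 40 members with a median of -0.33, while over all genes it was negative for 51.5% with a median of -0.0069.

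**Figure D1:**
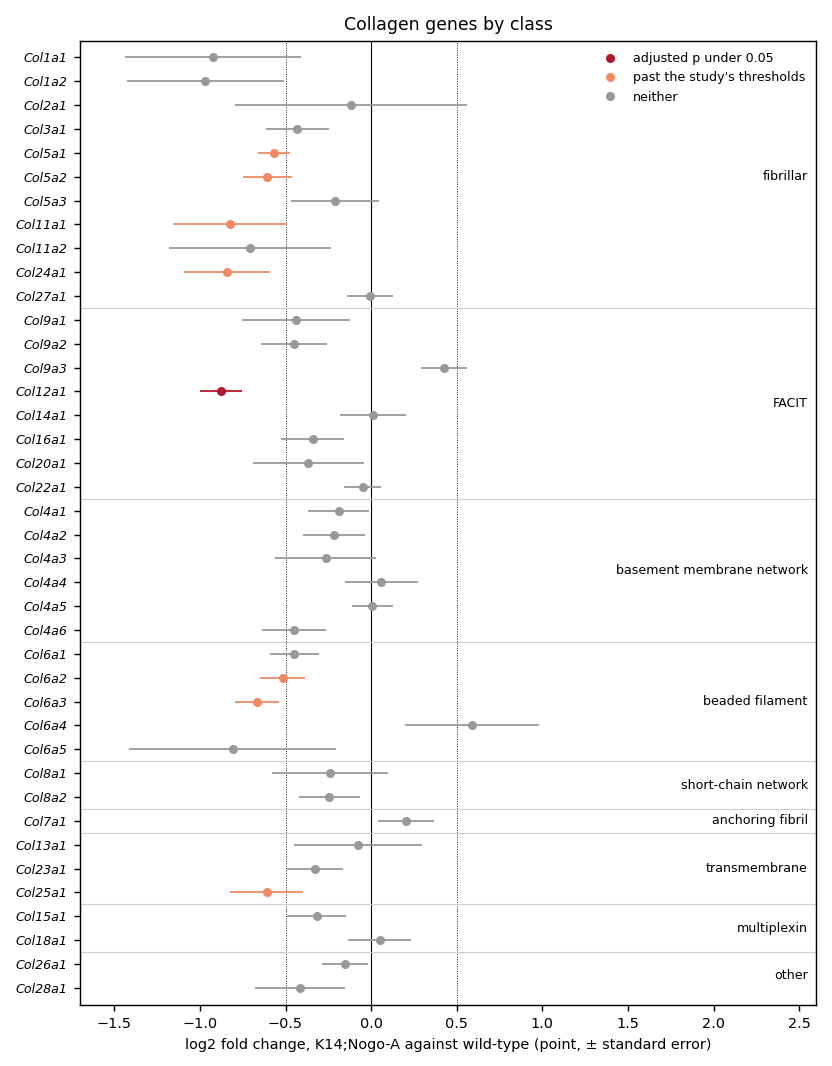
Log2 fold change of each of the 40 collagen genes, K14;Nogo-A (n = 4) against wild-type (n = 3), grouped by class, with the SE derived from the edgeR test as the bar. Dotted lines mark a log2 fold change of 0.5 in either direction; the 8 coloured points left of the lower line are past the study's thresholds, and only Col12a1 has an adjusted p under 0.05.

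The number of members called depended on the test. edgeR's likelihood-ratio test called 5 members lower at an adjusted p under 0.05 (Col5a1, Col5a2, Col6a2, Col6a3 and Col12a1), where it called 0.73% of all genes lower and 0.392% higher. DESeq2 called these and Col24a1, 6 in all, beside 1.05% of all genes lower and 0.892% higher. limma-voom called 0 members, beside 0.027% of all genes lower and 0% higher. None of these tests called a member higher. With each library left out in turn, 5 members were past the study's thresholds every time, namely Col5a1, Col5a2, Col24a1, Col12a1 and Col6a3. These were among the members already selected as past the thresholds with all libraries. The share of all genes that stayed past every time was not taken.

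The promoters of 3 of the 8 genes are shown because these genes stand for the patterns described in the next paragraphs. Col5a1 was lower by a like amount in every K14;Nogo-A library, Col6a3 belongs to the type VI genes, and Col11a1 varied among the K14;Nogo-A libraries. Each line gives the 250 bases before the annotated transcript start in GRCm38.p6 from RefSeq, read 5′ to 3′ on the strand of the gene, with capitals for GGGCGG (a GC box) and CCAAT on either strand.
Col5a1 (chr2:27886175-27886424, plus strand): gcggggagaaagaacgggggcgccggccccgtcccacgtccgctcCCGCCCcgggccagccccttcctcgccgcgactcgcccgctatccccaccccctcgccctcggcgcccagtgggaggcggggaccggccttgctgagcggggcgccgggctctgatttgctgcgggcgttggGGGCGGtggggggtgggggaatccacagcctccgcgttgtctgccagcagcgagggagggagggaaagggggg
Col6a3 (chr1:90843972-90844221, minus strand): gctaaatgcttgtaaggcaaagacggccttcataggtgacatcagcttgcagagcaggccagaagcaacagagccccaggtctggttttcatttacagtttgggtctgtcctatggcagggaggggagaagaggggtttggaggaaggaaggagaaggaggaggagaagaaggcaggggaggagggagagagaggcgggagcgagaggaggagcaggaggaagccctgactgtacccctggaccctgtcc
Col11a1 (chr3:114030290-114030539, plus strand): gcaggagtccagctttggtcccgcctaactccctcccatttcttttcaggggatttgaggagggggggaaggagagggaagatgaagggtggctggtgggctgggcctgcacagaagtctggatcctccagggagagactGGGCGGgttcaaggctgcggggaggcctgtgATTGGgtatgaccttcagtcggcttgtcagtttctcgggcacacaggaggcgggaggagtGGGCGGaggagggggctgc
The Col5a1 window held GGGCGG 73 bases before the start and its reverse complement CCGCCC 205 bases before it. The Col11a1 window held GGGCGG at 110 and 19 bases and ATTGG, the reverse complement of CCAAT, at 79 bases before the start. Neither motif was in the Col6a3 window. Promoters were found for 31 members (34 windows of 300 bases, from 250 before to 50 after the start), and GGGCGG was in 21 of these 34 (61.8%), beside 32.7% of 32851 mouse promoters. CCAAT was in 12 of 34 (35.3%, beside 33.8% of all) and TATAAA in 3 of 34 (8.82%, beside 12.4% of all), both strands searched.

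All 11 fibrillar collagen genes had a negative log2 fold change (median -0.61), 4 were past the study's thresholds, 0 fell, and the genotypes did not overlap for 3. Col1a1 and Col1a2 encode the α1 and α2 chains of type I collagen, the main protein of dentin and bone. Per kilobase of exon, Col1a1 had the highest level of all members, with a mean of 3487 CPM per kb in wild-type, and Col1a2 followed at 538 CPM per kb.

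Col1a1 (ENSMUSG00000001506, chr11:94936224-94953042) was at 23012, 6192, 6469 and 12554 CPM in K14;Nogo-A and at 28134, 15656 and 24874 CPM in wild-type. Replicates 2 and 7 were far below the others, K14;Nogo-A replicate 1 lay within the wild-type range, and the genotypes overlapped. Its log2 fold change was -0.92 (SE 0.51, adjusted p = 0.498). Col1a2 had a log2 fold change of -0.97 (SE 0.46, adjusted p = 0.437). Neither was past the study's thresholds, but both were with limma-voom and when K14;Nogo-A replicate 1 was left out, and Col1a2 also with the likelihood-ratio test. When that replicate was left out, the log2 fold change of Col1a1 was -1.45 and Col1a2 was among the 7 members with an adjusted p under 0.05. The share of all genes called without that replicate was not taken. Within the libraries with Y-linked counts, where replicate 1 is the only K14;Nogo-A library, the difference of Col1a1 in mean log2 CPM was 0.13.

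Type V collagen is incorporated into type I fibrils and helps to set their diameter. Col5a1 (ENSMUSG00000026837, chr2:27886425-28039514), the α1 chain, was at 344, 332, 363 and 390.2 CPM in K14;Nogo-A and 534, 515 and 541 CPM in wild-type. Each of the 3 wild-type libraries was above each of the 4 K14;Nogo-A libraries, and the libraries within a genotype were close to each other (357 ± 25.3 against 530.2 ± 13.3 CPM). The log2 fold change of -0.57 had an SE of 0.093, the smallest SE of the 40 members, and the adjusted p was 0.0929. Col5a2 (ENSMUSG00000026042, chr1:45374321-45503282), the α2 chain, was at 744, 485, 543 and 617 CPM in K14;Nogo-A and 1027, 838 and 864 CPM in wild-type. The genotypes did not overlap here either, and replicate 1 was the highest of the K14;Nogo-A libraries. Its log2 fold change was -0.61 (SE 0.14, adjusted p = 0.184). Col5a3, the third chain, was expressed at under 8 CPM and had a log2 fold change of -0.21 (SE 0.26).

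Type XI collagen belongs to the same subgroup as type V, and type XXIV is a minor fibrillar collagen of bone. Col11a1 (ENSMUSG00000027966, chr3:114030540-114220718) was at 416, 170.1, 179 and 265 CPM in K14;Nogo-A and 559, 372 and 439 CPM in wild-type. Replicate 1 lay above the lowest wild-type library, so the genotypes overlapped, and the log2 fold change was -0.83 (SE 0.33, adjusted p = 0.363). Col11a1 missed the study's thresholds when any library other than K14;Nogo-A replicate 1 was left out (log2 fold change -0.95 to -0.65), and without that replicate it was -1.16. Col24a1 (ENSMUSG00000028197, chr3:145292472-145552011) was at 126, 56.7, 62.8 and 80.1 CPM in K14;Nogo-A and 156, 143 and 138 CPM in wild-type. Its genotypes did not overlap, with replicate 1 close to the wild-type libraries and the other 3 far below them (log2 fold change -0.84, SE 0.25, adjusted p = 0.268). Col11a2 had a log2 fold change of -0.71 (SE 0.47) and overlapped between genotypes.

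The other 3 fibrillar genes were not past the study's thresholds. Col3a1, which makes the type III collagen of soft connective tissue, was at 927 to 1708 CPM in K14;Nogo-A and 1524 to 1982 CPM in wild-type (log2 fold change -0.43, SE 0.18, unadjusted p = 0.0383 and adjusted p = 0.358, edgeR). Col27a1 was at 347 ± 52.8 CPM in K14;Nogo-A and 349.7 ± 51.5 CPM in wild-type, a log2 fold change of -0.0090 (SE 0.13). Col2a1, the fibrillar collagen of cartilage, was at 3.62 to 18.4 CPM in K14;Nogo-A and 5.38 to 13 CPM in wild-type, with replicate 7 above every other library. Of 6 cartilage markers, Matn1, Comp, Cnmd and Matn3 were under 1 CPM in all libraries, Acan was at 0.646 to 1.37 CPM in K14;Nogo-A and 1.2 to 1.997 CPM in wild-type, and Hapln1 at 28.6 to 46.9 CPM and 38.2 to 77.7 CPM. The part of these markers in the Col2a1 values was not tested.

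**Figure D2:**
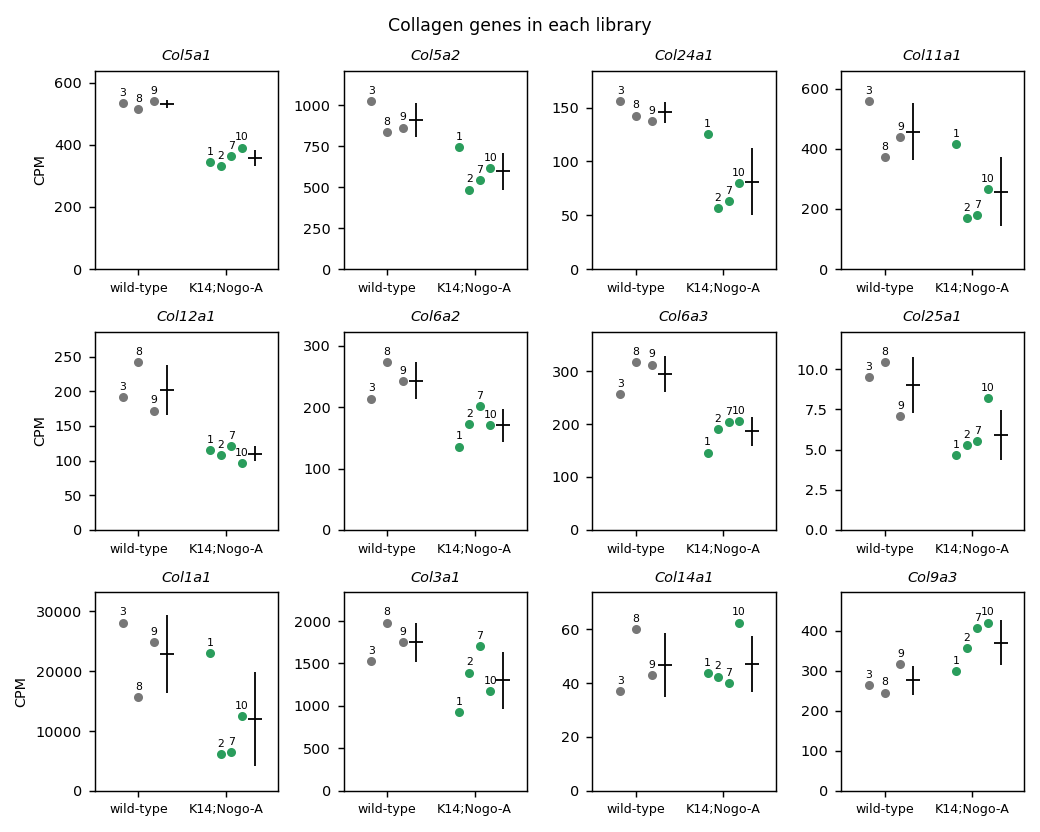
CPM of 12 collagen genes in each library, with the replicate number above each point and the mean and SD beside each group (wild-type n = 3, K14;Nogo-A n = 4). The first 8 panels are the genes past the study's thresholds. Col5a1, Col5a2, Col24a1, Col12a1, Col6a2 and Col6a3 do not overlap between genotypes, while Col1a1, Col3a1, Col11a1, Col14a1, Col25a1 and Col9a3 do.

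Spread among the K14;Nogo-A libraries separated the fibrillar genes. Among 28 members with a mean of at least 10 CPM in a genotype, 6 differed by more than 2-fold between the highest and the lowest K14;Nogo-A library. These were Col1a1 (3.72-fold), Col1a2 (3.65-fold), Col11a1 (2.44-fold), Col11a2 (3.15-fold), Col24a1 (2.22-fold) and the short-chain Col8a1 (2.49-fold). In wild-type only Col9a2 did. The first 5 of these genes were highest in replicate 1, next in replicate 10 and lowest in replicates 2 and 7, and the odontoblast markers had the same high and low libraries. Dspp, the gene of dentin sialophosphoprotein, was at 4024, 1499, 1524 and 3176 CPM in K14;Nogo-A and 4801, 2996 and 5142 CPM in wild-type. Dmp1, a dentin and bone matrix gene, was at 489.7, 81.6, 97.7 and 187 CPM in K14;Nogo-A and 443, 377 and 474 CPM in wild-type. Over the 3 odontoblast markers (Dspp, Dmp1 and Phex, all 3 with a negative log2 fold change) the sum was 1622 to 4790 CPM in K14;Nogo-A and 3576 to 5914 CPM in wild-type, and over 5 osteoblast markers, all 5 negative, 236 to 895 CPM and 632 to 1044 CPM. None of these 8 markers was past the study's thresholds or under 1 CPM, and their part in the collagen differences was not tested. Col8a1 had another order, lowest in replicate 1 and highest in replicate 2.

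**Figure D3:**
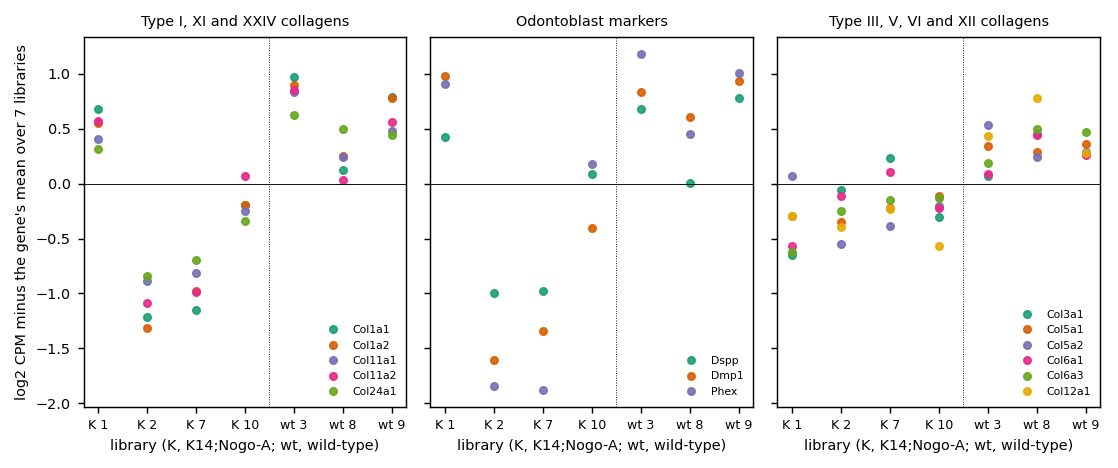
Log2 CPM of single genes minus the gene's mean over the 7 libraries, in K14;Nogo-A replicates 1, 2, 7 and 10 (K) and wild-type replicates 3, 8 and 9 (wt), which the dotted line separates. Type I, XI and XXIV collagens and the odontoblast markers are low in K14;Nogo-A replicates 2 and 7 and near or within the wild-type range in replicate 1, while Col5a1, Col6a3 and Col12a1 are below the wild-type libraries in all 4.

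The FACIT collagens had differences in both directions. Of 8 genes tested, Col12a1 fell, 0 rose, 6 had a negative log2 fold change and the median was -0.35. Col12a1 (ENSMUSG00000032332, chr9:79598991-79718831), the long fibril-associated type XII collagen of tendon, ligament and other loaded tissues, was at 115, 108, 121 and 96 CPM in K14;Nogo-A and 192, 243 and 172 CPM in wild-type. Every K14;Nogo-A library lay below every wild-type library (110.0 ± 10.7 against 202 ± 36.4 CPM), and the 4 K14;Nogo-A libraries were within 25 CPM of each other. The log2 fold change was -0.88 (SE 0.12, adjusted p = 0.0413). As a difference in mean log2 CPM it was -0.90 within the libraries with Y-linked counts and -0.67 within those without. Each of these comparisons has 1 library on one side. Both had to be negative, because the genotypes did not overlap. The call rested on several libraries: it held when K14;Nogo-A replicate 1 was left out or when wild-type replicate 9 was, and was lost without any one of the other 5, and the log2 fold change stayed between -0.97 and -0.72. With the mean of the mesenchyme markers as a covariate the log2 fold change was -0.24 and Col12a1 missed the study's thresholds. That mean did not overlap between genotypes (5.31 to 5.35 against 5.56 to 5.86), so this fit separates it poorly from genotype.

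Col9a3 (ENSMUSG00000027570, chr2:180597790-180622189), a chain of the type IX collagen best known from cartilage, was the member with the highest FACIT level per kilobase (71.5 CPM per kb in wild-type). It was at 298, 357, 405 and 419.8 CPM in K14;Nogo-A and 264, 245 and 317 CPM in wild-type. Replicate 1 lay within the wild-type range and the other 3 K14;Nogo-A libraries above it. Its log2 fold change of 0.43 (SE 0.13, adjusted p = 0.253) did not reach 0.5. It was 0.52 when K14;Nogo-A replicate 1 was left out and 0.55 when wild-type replicate 9 was. Without any 1 of the other libraries it was 0.35 to 0.44, and with a Y-linked covariate it was 0.28. The partner chains Col9a1, at 0.354 CPM per kb, and Col9a2, at 11.7 CPM per kb in wild-type, were far lower in level and had log2 fold changes of -0.44 and -0.45. A stretch of 234 bases of Col9a3 exon (6.07%) overlaps Tcfl5 on the opposite strand, and Tcfl5 had 430 counts over all 7 libraries.

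Col14a1, which like Col12a1 decorates type I fibrils, was at 47.1 ± 10.4 CPM in K14;Nogo-A and 46.7 ± 12 CPM in wild-type (log2 fold change 0.011, SE 0.19). Col22a1, found at tissue junctions, had a log2 fold change of -0.050 (SE 0.11), Col16a1 of -0.34 and Col20a1 of -0.37, each with overlapping genotypes.

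None of the basement membrane collagens was past the study's thresholds. Of 6 type IV genes, 4 had a negative log2 fold change and the median was -0.20. Col4a1 (ENSMUSG00000031502, chr8:11198423-11312826), the α1 chain found in nearly all basement membranes, was at 375, 595, 694 and 568 CPM in K14;Nogo-A and 568, 639 and 702 CPM in wild-type. Replicate 1 was the lowest library and replicate 7 reached the top of the wild-type range (log2 fold change -0.19, SE 0.18). Col4a2, its partner, had a log2 fold change of -0.22 (SE 0.18). The genes lie head to head on chromosome 8, and their first exons share 22 bases, chr8:11312805-11312826 in GRCm38.p6, shown on the plus strand because both transcripts begin in it. Motifs are not put in capitals in this stretch, which does hold GGGCGG.
Col4a1 and Col4a2: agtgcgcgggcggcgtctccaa

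Col4a5 and Col4a6, chains of the basement membrane under epithelia, are likewise head to head on chromosome X, 1308 bases apart. Col4a5 was at 26.3 ± 3.26 CPM in K14;Nogo-A and 26.2 ± 1.99 CPM in wild-type (log2 fold change 0.0076, SE 0.12). Col4a6 was at 2.63, 3.4, 3.52 and 2.94 CPM in K14;Nogo-A and 4.1, 4.24 and 4.51 CPM in wild-type, with no overlap (log2 fold change -0.45, SE 0.18, adjusted p = 0.338). The third such pair, Col4a3 and Col4a4 on chromosome 1, 71 bases apart, was at under 1.2 CPM and under 5 CPM in every library and had log2 fold changes of -0.27 and 0.058.

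The 3 main beaded filament genes had negative log2 fold changes of like size. Type VI collagen is assembled from Col6a1, Col6a2 and one longer chain, usually Col6a3. Of 5 genes tested, 2 were past the study's thresholds and 4 had a negative log2 fold change, with a median of -0.52. Col6a3 (ENSMUSG00000048126, chr1:90765923-90843971) was at 146, 190.0, 203 and 206 CPM in K14;Nogo-A and 256, 318 and 312 CPM in wild-type. The genotypes did not overlap and replicate 1 was the lowest library (log2 fold change -0.66, SE 0.13, adjusted p = 0.152). It stayed past the study's thresholds without any one library, with log2 fold changes from -0.76 to -0.56.

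Col6a2 (ENSMUSG00000020241, chr10:76595762-76623630) was at 136, 173, 201 and 171 CPM in K14;Nogo-A and 214, 274 and 242 CPM in wild-type. The genotypes did not overlap either, by a margin of less than 13 CPM between replicate 7 and wild-type replicate 3 (log2 fold change -0.52, SE 0.13, adjusted p = 0.199), and with K14;Nogo-A replicate 1 left out, or with wild-type replicate 8 left out, the log2 fold change was -0.42. Col6a1 (ENSMUSG00000001119, chr10:76708792-76726168), the type VI gene with the highest level per kilobase (50.7 CPM per kb in wild-type), was at 125, 170.5, 198 and 158 CPM in K14;Nogo-A and 195, 250.4 and 221 CPM in wild-type. Replicate 7 lay just above the lowest wild-type library and the log2 fold change of -0.45 (SE 0.14, adjusted p = 0.264) missed 0.5. The rank per kilobase used exon lengths of 4380 bases for Col6a1 and 8326 bases for Col6a2. In CPM, Col6a2 was the higher in wild-type (mean 243 against 222). The alternative long chains Col6a4 and Col6a5 were below 4 CPM in every library, with log2 fold changes of 0.59 (SE 0.39) and -0.81 (SE 0.60).

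In the remaining classes the median was -0.24 for the short-chain network (2 genes), -0.33 for the transmembrane collagens (3 genes), -0.13 for the multiplexins (2 genes) and -0.28 for the 2 genes outside the classes. Of these and the anchoring fibril gene Col7a1, only Col25a1, a membrane-bound collagen known from nerve cells and from amyloid plaques, was past the study's thresholds. Col25a1 (ENSMUSG00000058897, chr3:130131501-130599877) was at 4.66, 5.3, 5.55 and 8.2 CPM in K14;Nogo-A and 9.52, 10.5 and 7.11 CPM in wild-type. The genotypes overlapped, with replicate 10 above the lowest wild-type library (log2 fold change -0.61, SE 0.21, adjusted p = 0.283). Without wild-type replicate 8 the log2 fold change was -0.49 and it missed the thresholds.

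Col7a1, the anchoring fibril collagen that epithelial cells use to fasten the basement membrane to the tissue below, was at 126, 178, 171 and 201 CPM in K14;Nogo-A and 127, 134 and 179 CPM in wild-type (log2 fold change 0.20, SE 0.16). Its values overlapped widely between genotypes. The multiplexin Col18a1, which carries the sequence of endostatin and lies in basement membranes, was at 191, 313, 331 and 360.1 CPM in K14;Nogo-A and 258, 303 and 307 CPM in wild-type (log2 fold change 0.049, SE 0.19), with replicate 1 the lowest library. Col15a1, the other multiplexin, had a log2 fold change of -0.32.

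The transmembrane Col23a1 was at 50.6, 47.7, 49.9 and 59.3 CPM in K14;Nogo-A and 56.3, 87 and 51.7 CPM in wild-type, where wild-type replicate 8 stood above the rest (log2 fold change -0.33, SE 0.17). The short-chain Col8a2 was at 66.4, 109, 109.8 and 123 CPM in K14;Nogo-A and 116, 136 and 111 CPM in wild-type (log2 fold change -0.24, SE 0.18). Col26a1, in no class of the lists, was at 137, 164, 206 and 179 CPM in K14;Nogo-A and 164, 201 and 207 CPM in wild-type (log2 fold change -0.15, SE 0.14). In all 3 the genotypes overlapped. Col8a1, Col13a1 and Col28a1 had log2 fold changes of -0.24, -0.076 and -0.41.

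Summed over a class, levels per kilobase showed which chains carried the collagen RNA. The 40 members took 1.39% to 3.65% of all counts in K14;Nogo-A, against 3.09% to 4.49% in wild-type. Col1a1 and Col1a2 alone made up 55.9% to 84.1% of the summed CPM per kb of all members in K14;Nogo-A, against 72.7% to 83% in wild-type. Their sum was 4003, 1079.6, 1158 and 2207 CPM per kb in K14;Nogo-A and 4918, 2789 and 4369 CPM per kb in wild-type, with overlap. Without them the other 38 members summed to 757, 815, 914 and 882 CPM per kb in K14;Nogo-A and 1006, 1049 and 1077 CPM per kb in wild-type. Here the genotypes did not overlap (842 ± 70.4 against 1044 ± 35.8 CPM per kb).

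The beaded filament sum did not overlap either, at 57.2, 76, 86.6 and 73.9 CPM per kb in K14;Nogo-A and 91.9, 117 and 106 CPM per kb in wild-type. The FACIT sum, in which Col9a3 weighs most, was 159 ± 15 CPM per kb in K14;Nogo-A and 147 ± 10.04 CPM per kb in wild-type. The basement membrane sum was 138 ± 32.2 CPM per kb in K14;Nogo-A and 158 ± 17.8 CPM per kb in wild-type, and both of these classes overlapped.

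**Figure D4:**
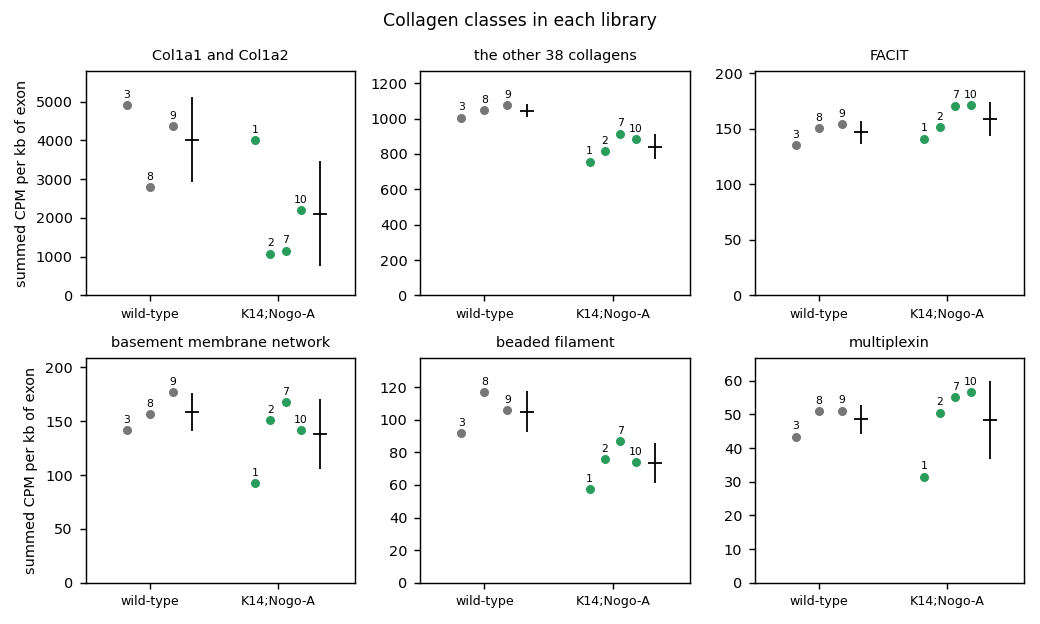
Summed CPM per kb of exon of collagen classes in each library, with the replicate number above each point and the mean and SD beside each group (wild-type n = 3, K14;Nogo-A n = 4). The sums of the other 38 collagens and of the beaded filament class do not overlap between genotypes, and the other 4 sums do.

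Ratios of chains within a library were compared because chains of one collagen type are built into one molecule, and a ratio does not depend on library size. Some pairs are instead collagens of one fibril, such as Col14a1 and Col12a1. For 18 pairs the log2 ratio of CPM per kb was tested with the exact two-sided permutation test, whose smallest possible p is 0.0286, with Benjamini-Hochberg adjustment over the 18 pairs. No pair passed an adjusted p of 0.05. Among pairs of chains of one collagen type the ratio varied least for Col6a2/Col6a1, by 0.12 on the log2 scale over all 7 libraries, followed by Col4a2/Col4a1 (0.14) and Col1a2/Col1a1 (0.30). The other pairs of one type varied by 0.46 (Col6a3/Col6a1) to 1.74 (Col9a3/Col9a1), while Col1a1 itself went from 6192 to 28134 CPM. The genotype difference of the ratio was -0.063 for Col6a2/Col6a1 (exact p = 0.171), -0.027 for Col4a2/Col4a1 (exact p = 0.6) and -0.027 for Col1a2/Col1a1 (exact p = 0.743).

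Of the 18 pairs, 3 reached the smallest possible p. The log2 ratio Col4a6/Col4a5 was -3.24, -3.29, -3.17 and -3.47 in K14;Nogo-A and -2.79, -2.85 and -2.87 in wild-type, a difference of -0.46 (exact p = 0.0286, adjusted p = 0.171). All 4 K14;Nogo-A values were below all 3 wild-type values. The log2 ratio Col9a3/Col9a1 was higher in K14;Nogo-A by 0.84, and Col14a1/Col12a1 by 0.89, each without overlap and each with an exact p of 0.0286 (adjusted p = 0.171). Col12a1 alone was already lower without overlap (log2 fold change -0.88) and Col14a1 was at 0.011. The Col14a1/Col12a1 ratio therefore repeats the Col12a1 difference and is no separate result. Col9a1 was at under 3 CPM in every library. Col4a4/Col4a3 did not overlap either, with a difference of 0.32 (exact p = 0.0571), at the low levels given above. Ratios to Col1a1 varied with the spread of Col1a1, and Col3a1/Col1a1 differed by 0.64 (exact p = 0.457).

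**Figure D5:**
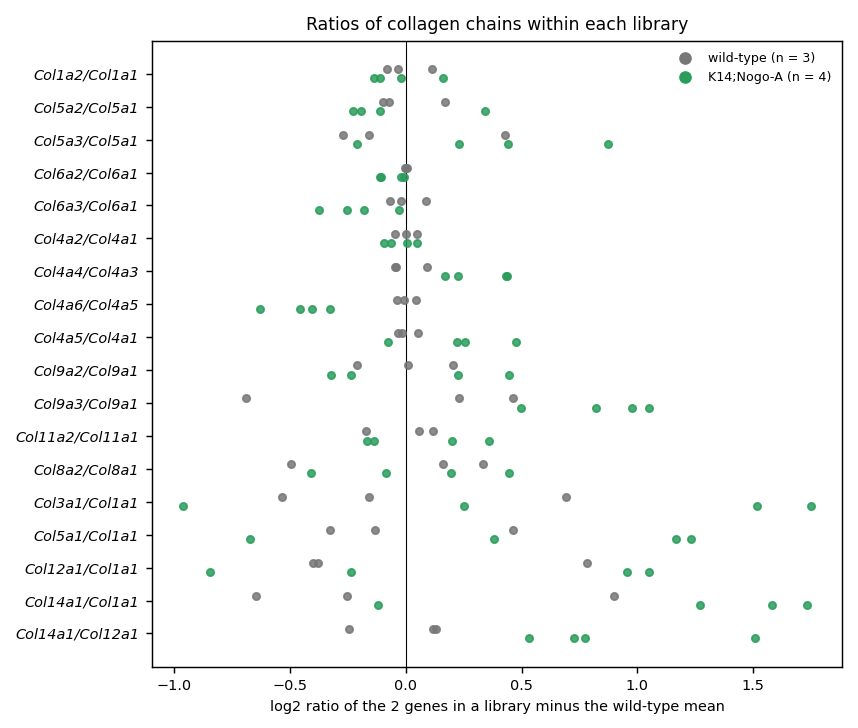
Log2 ratio of CPM per kb of 2 collagen genes in each library, minus the mean of that ratio in wild-type, for 18 pairs. K14;Nogo-A points (n = 4) lie apart from wild-type points (n = 3) for Col4a6/Col4a5, Col9a3/Col9a1, Col14a1/Col12a1, Col4a4/Col4a3 and, by less than 0.1, Col6a2/Col6a1.

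Most mesenchyme markers, like most collagen genes, were lower in K14;Nogo-A. Across the K14;Nogo-A libraries the mean log2 CPM of the markers was 5.31 to 5.35. There Col5a1 ran from 332 to 390 CPM and Col1a1 from 6192 to 23012 CPM. Single markers varied more than their mean and in different orders. In K14;Nogo-A, Dcn was at 677, 166, 179 and 401 CPM, highest in replicate 1. Fbn1 was at 120, 154, 148 and 191 CPM, lowest in replicate 1. Of 18 such markers that are no collagens, 16 had a negative log2 fold change (median -0.41) and 4 were past the study's thresholds in the lower direction. Their sum was 1667 to 2521 CPM in K14;Nogo-A and 2519 to 3322 CPM in wild-type, their mean log2 CPM was 0.40 lower in K14;Nogo-A without overlap, and Barx1 was under 1 CPM in all libraries. Set against that mean in each library, the median difference of the 40 members was 0.037 on the log2 scale, with 18 negative and 22 positive, while all genes had a median of 0.39. On this relative scale 1 member was lower without overlap (Col12a1, -0.47) and 1 was higher (Col9a3, 0.82), beside 0.277% of all genes lower and 47.8% higher. With the same mean as a covariate in the edgeR fit instead, the log2 fold change of Col9a3 was -0.11 (unadjusted p = 0.704), and 2 members (Col5a1 and Col6a3) in place of 8 were past the study's thresholds in the lower direction and 1 in the higher. This covariate did not overlap between genotypes, so the fit separates it poorly from genotype. The part of the mesenchyme markers in the collagen differences was not tested.

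Markers of other cell types gave the following background. The 8 endothelium markers, 7 with a negative log2 fold change and 4 past the study's thresholds in the lower direction, summed to 164 to 277 CPM in K14;Nogo-A and 268 to 294 CPM in wild-type, and the 6 cartilage markers, of which 3 were tested and 1 was past the thresholds in the lower direction, to 30.4 to 47.96 CPM and 40.2 to 80.6 CPM. The 7 ameloblast markers, 0 negative and 3 past the thresholds in the higher direction, summed to 31399 to 103577 CPM in K14;Nogo-A and 12759 to 40506 CPM in wild-type. The 5 immune markers, all 5 negative and 1 past the thresholds, summed to 26.7 to 55.6 CPM and 37.98 to 59.5 CPM, the 6 Schwann cell markers, 3 negative and 1 past the thresholds in the higher direction, to 22.7 to 29.1 CPM and 21.04 to 28.5 CPM, and the 6 skeletal muscle markers, of which 3 were tested and 0 were negative, to 2.91 to 19.4 CPM and 6.92 to 12.3 CPM. No marker of any of these lists was at 0 in all libraries, and Cdh19 and Foxd3 of Schwann cells and Myog, Myod1 and Myh3 of muscle were under 1 CPM in all. Their part in the collagen differences was not tested.

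Genes that make, trim, crosslink or bind collagen were taken from lists of 45 genes, of which 44 were tested. Of these, 4 were past the study's thresholds in the lower direction and 0 in the higher (all genes 2.74% and 2.02%), and 0 rose or fell at an adjusted p under 0.05 in edgeR. At an unadjusted p under 0.05 there were 14 lower and 1 higher (all genes 6.66% and 6.25%), and 10 were lower and 1 higher without overlap between genotypes (all genes 6.09% and 5.43%). The log2 fold change was negative for 33 of 44, with a median of -0.22.

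Of 22 genes for modifying and folding chains in the endoplasmic reticulum, 2 were past the thresholds, P4ha3 (log2 fold change -0.55) and P3h2 (-0.60), prolyl hydroxylases. In both the genotypes overlapped (adjusted p = 0.27 and 0.292, edgeR). P4ha1, the catalytic subunit of another prolyl 4-hydroxylase, was at 114, 70.8, 81 and 86.9 CPM in K14;Nogo-A and 135, 122 and 115 CPM in wild-type. Its genotypes did not overlap, and its log2 fold change of -0.50 (SE 0.14) lay just short of the threshold. Plod1, a lysyl hydroxylase, had a log2 fold change of -0.40, and P3h1, a prolyl 3-hydroxylase, of -0.39, both without overlap. Serpinh1, the collagen chaperone HSP47, was at 1643 ± 201 CPM in K14;Nogo-A and 1966 ± 28.6 CPM in wild-type (log2 fold change -0.26).

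Of 8 genes for trimming the ends of procollagen, 1 was past the thresholds. Adamts2, the protease that removes the amino-terminal end of fibrillar procollagen, was at 97, 76.6, 82.1 and 98.1 CPM in K14;Nogo-A and 125, 122 and 140.1 CPM in wild-type. Each wild-type library was above each K14;Nogo-A library (log2 fold change -0.54, SE 0.11, adjusted p = 0.152). Its relative Adamts3 had a log2 fold change of -0.48 (SE 0.14), also without overlap. Of 5 crosslinking enzymes 0 were past the thresholds, and Lox, the lysyl oxidase, was at 278, 41.7, 42.2 and 145 CPM in K14;Nogo-A and 332, 161 and 273 CPM in wild-type, with the same high and low libraries as Col1a1.

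Of 9 collagen receptors tested, 1 was past the thresholds. Ddr2, a receptor tyrosine kinase for fibrillar collagen found mainly on mesenchymal cells, was at 51, 41.6, 44 and 44.1 CPM in K14;Nogo-A and 85.9, 85 and 59 CPM in wild-type, without overlap (log2 fold change -0.76, SE 0.13, adjusted p = 0.11). Ddr1, its relative found mainly on epithelial cells, was at 162, 185, 164 and 160.3 CPM in K14;Nogo-A and 135, 97.6 and 139.7 CPM in wild-type. It was the only one of the 44 genes that was higher without overlap (log2 fold change 0.44, SE 0.12, adjusted p = 0.221). Itga11, the integrin chain of a fibroblast collagen receptor, had a log2 fold change of -0.37 (SE 0.11), without overlap.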

How the data were processed

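Poly(A) RNA of 7 dental epithelium samples, 4 K14;Nogo-A and 3 wild-type, was sequenced as single-end reads. The authors deposited unnormalized read counts for each Ensembl gene. They were made with bcl2fastq 2.19, Trimmomatic (submitters' processing notes) or fastp (the paper), STAR 2.7.1 on GRCm38 with Ensembl release 91, and featureCounts. No source used here gives the strand setting of featureCounts, so genes that overlap on opposite strands may share counts. All count columns were used.

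Symbols and exon lengths came from GENCODE M21. Exon length was the merged length of all annotated exons of a gene, so levels per kilobase depend on the annotation. The 14791 genes that reached 10 counts in 50% or more of the K14;Nogo-A or of the wild-type libraries were fitted with edgeR 4.0.16 in R 4.3.3 (TMM, robust quasi-likelihood test, no covariate, Benjamini-Hochberg adjustment), after the study's design. Steps were tested on simulated data. The labels give each pup its own sample, and p-values measure the spread between pups. CPM used TMM library sizes, and for ratios a prior count of 2 was added before taking log2 CPM. The two-sided exact permutation tests used all 35 assignments of 7 libraries to groups of 4 and 3. Totals were 20929207 to 41219439 counts.

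The members, classes and gene lists were chosen with earlier results of these data known, so no p-value over members is given. Values in every library are given for members called, members past the study's thresholds and the member of each class with the highest level per kilobase, and of each further list for up to 3 genes with the smallest p. Col14a1, Col4a6, Dspp, Dmp1, Serpinh1, P4ha3 and P3h2 were chosen after their values were seen. Alternatives were RLE and upper-quartile factors, the likelihood-ratio test, DESeq2 1.42.0, limma-voom (limma 3.58.1), other filters, thinned counts, covariates, other thresholds and each library left out. Comparison within libraries with or without Y-linked counts was added after the data were seen. Promoters came from RefSeq (GRCm38.p6). Protein sequences were not used here.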

Additional observations from a re-analysis of the deposited data

How the results depend on the processing

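Of 40 collagens, 8 were past the study's thresholds in the lower direction, and 2 with the mesenchyme mean as a covariate (Col5a1 and Col6a3). Leaving out 1 library gave 5 (without wild-type replicate 8) to 13 (without K14;Nogo-A replicate 7). In the higher direction the count was 0, 1 with the mesenchyme covariate and 0 to 1 with a library left out. Calls at an adjusted p under 0.05 were 1 (Col12a1), 0 with upper-quartile factors, limma-voom or the mesenchyme covariate, 5 with the likelihood-ratio test, 6 with DESeq2, 3 without a filter and 2 at an adjusted p under 0.1. With a library left out they were 0 to 7, the 7 when K14;Nogo-A replicate 1 was left out, and were 2 when wild-type replicate 9 was. For refits with a library left out, another filter or a covariate, the share of all genes called or past the thresholds was not taken. Whether these counts moved only for the collagens was therefore not tested. The Y-linked covariate also gave 1 call, Col6a3 in place of Col12a1. The adjusted p of Col12a1 ran from 7.32e-07 to 0.885 over 18 refits and was under 0.05 in 9. Pathway genes past the thresholds in the lower direction were 4, 10 with limma-voom, 7 with the mesenchyme covariate, 2 at a fold change of 1.5 and 2 to 11 with a library left out (2 without K14;Nogo-A replicate 2, 11 without K14;Nogo-A replicate 1), and in the higher direction 0 to 1.

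The fibrillar median (-0.61) was below that of the beaded filament class (-0.52), but not without K14;Nogo-A replicate 7 (-0.59 against -0.61), K14;Nogo-A replicate 2 (-0.52 for both) or wild-type replicate 3 (-0.52 against -0.53). With the mesenchyme covariate the median log2 fold change was -0.51 for fibrillar, -0.60 for short-chain, 0.31 for FACIT, 0.62 for transmembrane and -0.67 for basement membrane collagens, and single genes turned sign: Col9a3 -0.11, Col7a1 -0.47, Col23a1 0.62, Col25a1 0.11 and Col18a1 -0.15. Leaving out 1 library gave a median of -0.50 to -0.23 over all members, -0.25 to 0.0082 over multiplexins, and -0.053 to 0.21 for Col18a1, which was -0.19 with the Y-linked covariate. In mean log2 CPM, the difference within libraries with Y-linked counts was 0.13 for Col1a1, -0.051 for Col7a1 and -0.55 for Col18a1. Within those without, it was 0.035 for Col8a2 and 0.0092 for Col23a1. The 8 members past the thresholds, which were selected as lower, were negative in both, but each comparison has 1 library on one side, and the values differed between them, as for Col11a1 (-0.13 and -1.13) and Col24a1 (-0.25 and -1.07). Ratios that turned sign with a library left out were Col1a2/Col1a1 (-0.090 to 0.031), Col5a2/Col5a1 (-0.18 to 0.037), Col9a2/Col9a1 (-0.11 to 0.15), Col11a2/Col11a1 (-0.034 to 0.14), Col8a2/Col8a1 (-0.21 to 0.20) and Col12a1/Col1a1 (-0.042 to 0.62). The median relative to mesenchyme markers was 0.27 against mesenchyme minus epithelium and -0.078 to 0.13 with a library left out. The cause of these changes was not tested. The mesenchyme mean did not overlap between genotypes, so fits with it as a covariate separate it poorly from genotype. The paper describes the controls as littermates, but the labels used here give no litter, so no paired analysis was made. Without 1 library the exact test cannot go below 0.0667 or 0.1. Of the members, 2 (Col4a3 and Col6a5) had means under 1 CPM in both genotypes, where small differences were not detectable at this depth.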
